A study of Homo sapiens with 96 samples.

Results

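Histones are the proteins around which DNA is wound, and most are encoded by small genes that sit in clusters. The histone cluster genes are the rows of the deposited gene tables whose symbol starts with HIST1H, HIST2H, HIST3H or HIST4H: 35 of the 19438 genes listed. Of these, 17 had at least 10 whole reads per library on mean in total RNA and are described here. They are the linker histones HIST1H1A, HIST1H1C and HIST1H1E, 4 H2A genes, 7 H2B genes, 2 H3 genes and 1 H4 gene, HIST4H4. The other H4 genes listed were HIST2H4A and HIST1H4L, both under that minimum. HIST4H4 therefore does not stand for H4 genes as a class. Total RNA and ribosome footprints, the mRNA pieces protected by a ribosome, were sequenced in U2-OS, a human osteosarcoma line. The line carries a luciferase gene under the Per2 promoter. Knockdown plates started from 0.56 M cells (M, 1e+06) and were transfected with 120 pmol of a mix of 5 siRNAs against Bmal1 (ARNTL in the files), a core activator of the circadian clock. Wild-type plates started from 2.25 M cells and got no siRNA. The labels give no control siRNA, so knockdown, transfection and seeding density cannot be told apart. Both kinds of cell were synchronised with 0.1 µM dexamethasone, collected every 2 h over 1 day from 24.5 h onward, and treated with 100 µg/mL cycloheximide to hold ribosomes in place. The 12 circadian times (CT00 to CT22) had 2 replicates each, which makes 24 libraries per treatment and assay.

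Cells make most of these histones during DNA replication, when new chromatin needs to be packed. H2A, H2B, H3 and H4 form the core on which DNA is wound, and H1 binds the DNA between cores. Their mRNAs end in a stem-loop that is bound by SLBP in place of a poly(A) tail, and they are broken down quickly when replication stops. Several cluster genes can also give polyadenylated transcripts, which persist outside S phase.

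The stretches before the starts of these genes hold short sequence motifs, and are shown as background. Whether a motif goes with the changes of the members was not tested. They are from RefSeq (GRCh38.p14), a newer build than the one used by the authors, and 16 of the 17 members were matched to a window of 250 bases before the start. HIST1H2AG and HIST1H2BJ are a divergent H2A and H2B pair, so the bases between their starts serve as the upstream stretch of both. HIST1H1A had the largest knockdown effect of the members, HIST1H1C the most reads and HIST4H4 the smallest knockdown effect. Capitals mark the CCAAT box, the TATA box motif (TATAAA), the octamer that POU2F1 binds (ATGCAAAT) and an element known from H1 promoters (AAACACA), each searched on both strands.
HIST1H2AG and HIST1H2BJ between their starts, chr6:27132796-27133042, plus strand: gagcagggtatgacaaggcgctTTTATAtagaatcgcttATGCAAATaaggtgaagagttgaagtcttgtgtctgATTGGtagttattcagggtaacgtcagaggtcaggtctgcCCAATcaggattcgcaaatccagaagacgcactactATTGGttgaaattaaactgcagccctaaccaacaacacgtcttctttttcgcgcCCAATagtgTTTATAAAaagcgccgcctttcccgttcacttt
HIST1H1A before the start, chr6:26017788-26018037, minus strand: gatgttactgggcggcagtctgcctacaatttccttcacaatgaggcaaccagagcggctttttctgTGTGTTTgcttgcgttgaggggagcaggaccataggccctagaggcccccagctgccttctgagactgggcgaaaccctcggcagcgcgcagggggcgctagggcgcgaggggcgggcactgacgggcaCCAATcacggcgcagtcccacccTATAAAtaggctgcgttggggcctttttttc
HIST1H1C before the start, chr6:26056471-26056720, minus strand: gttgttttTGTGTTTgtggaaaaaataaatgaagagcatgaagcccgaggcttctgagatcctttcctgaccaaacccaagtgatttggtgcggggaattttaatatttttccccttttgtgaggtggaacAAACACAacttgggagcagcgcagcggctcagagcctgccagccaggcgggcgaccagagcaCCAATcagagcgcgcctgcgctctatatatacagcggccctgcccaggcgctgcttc
HIST4H4 before the start, chr12:14771132-14771381, minus strand: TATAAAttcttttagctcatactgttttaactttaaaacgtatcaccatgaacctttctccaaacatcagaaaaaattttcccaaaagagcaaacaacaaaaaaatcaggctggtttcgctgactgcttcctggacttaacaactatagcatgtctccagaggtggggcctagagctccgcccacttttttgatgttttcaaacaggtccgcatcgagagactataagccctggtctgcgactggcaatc

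CCAAT was found before 15 of the 16 members, all but HIST4H4, against 37.0% of 27305 genes with a window of the same length. TATAAA was found before 13 members, against 13.0% of genes. A match counted at any place in the window, and that of HIST4H4 lies at the end farthest from the start. The octamer was found before 8 members, all of them H2A, H2B or H3 genes, against 2.03% of genes. AAACACA was found before 3 members, which are the 3 H1 genes, against 5.95% of genes. CACGTG, the E-box sequence bound by BMAL1 with its partner CLOCK, was found before 0 of 16 members and 7.73% of genes. That says only that these letters are not in this window. The windows of 3 pairs of members overlap (HIST1H2AC and HIST1H2BC, HIST1H2AD and HIST1H3D, HIST1H2AG and HIST1H2BJ), so the counts are not over separate sequences.

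Total RNA libraries held 13.6 to 20.1 M reads in 46 cases, and 2.66 and 2.56 M in the knockdown libraries of replicate 2 at CT14 and CT18. Footprint libraries held 2.50 to 5.82 M reads. ARNTL lay at 3.36 to 6.49 CPM (counts per M reads) in knockdown total RNA, against 14.3 to 47.9 CPM in wild-type total RNA. Of 7 osteosarcoma and mesenchymal markers, TWIST1 lay under 0.1 CPM in both treatments and COL1A2 in wild-type cells. Their summed level was 3417 to 4152 CPM in knockdown libraries and 2977 to 3447 CPM in wild-type libraries. The 4 epithelial markers summed to 5.08 to 10.8 CPM in knockdown and 4.67 to 10.5 CPM in wild-type libraries, with KRT5 under 0.1 CPM. The 4 blood markers summed to 9.84 to 17.6 CPM in knockdown and 1.57 to 3.38 CPM in wild-type libraries, with CD3E and HBB under 0.1 CPM. The 4 neuronal markers summed to 421 to 568 CPM in knockdown and 318 to 403 CPM in wild-type libraries. The mesenchymal, blood and neuronal sums move with the treatment, and their part in the results was not tested.

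All 17 histone cluster genes were lower in knockdown cells in total RNA. Their median change was -1.15 on the log2 CPM scale, against 0.01 for all genes tested, and 246 of 14033 genes lay below that median. The 17 genes together took 0.624% ± 0.172 of the reads of a total RNA library in knockdown cells and 1.28% ± 0.111 in wild-type cells (SD, n = 24 each). All 17 passed the threshold, an adjusted p of 0.05 in limma. Of all genes, 39.3% were lower by that rule and 80.5% were past it in either direction. The number of members is therefore read beside a comparison in which most genes differed. In bulk samples, fewer cells in S phase and less histone RNA per cell cannot be told apart. Whether replicates came from separate cultures is not stated in the labels, so the spread behind each p-value may be technical. The test also takes libraries that share a replicate number as independent, so its p-values may be too small. With 1 mean per treatment and replicate number (series means), the largest adjusted p of a member was 0.000276 in total RNA (limma), against 4.11e-18. In footprints it was 0.00079, against 1.95e-14.

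HIST1H1A, a linker histone, had 35.1, 59.9 and 83.6 CPM (lowest, median and highest of 24 libraries) in knockdown total RNA, against 224, 267 and 375 CPM in wild-type total RNA. Every knockdown library lay far below every wild-type library. It fell by 2.22 ± 0.07 (log2 ± SE, adjusted p = 2.64e-21, limma), more than any other member. HIST1H1C, the linker histone with the most reads, had 625, 942 and 1483 CPM in knockdown cells, against 1594, 1845 and 2218 CPM in wild-type cells. Those ranges did not meet either, although the gap between them was narrow. HIST1H1C fell by 0.98 ± 0.04 (adjusted p = 2.41e-21, limma), and HIST1H1E by the same 0.98 ± 0.04.

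Among the core histones, HIST1H2AG, the H2A gene with the most reads, had 390, 730 and 1180 CPM in knockdown total RNA, against 1272, 1496 and 1808 CPM in wild-type total RNA. The knockdown libraries were all lower, and the fall was 1.03 ± 0.03 (adjusted p = 1.75e-22, limma). HIST1H2BL, an H2B gene, had the second largest fall: 50.2, 99.4 and 161 CPM in knockdown cells, against 239, 280 and 343 CPM in wild-type cells. Its ranges lay apart, and it fell by 1.49 ± 0.05 (adjusted p = 4.39e-22, limma). HIST1H2BK, the H2B gene with the most reads, had 378, 606 and 916 CPM in knockdown cells, against 1018, 1194 and 1460 CPM in wild-type cells, and fell by 0.93 ± 0.04. Its ranges lay apart too.

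HIST1H3D, the H3 gene with the most reads, had 124, 215 and 340 CPM in knockdown total RNA, against 495, 567 and 712 CPM in wild-type total RNA. No libraries overlapped, and the fall was 1.40 ± 0.03 (adjusted p = 4.01e-26, limma). HIST2H2BE, an H2B gene of the second cluster, fell by 0.92 ± 0.04 with 300, 505 and 825 CPM in knockdown cells, against 857, 995 and 1150 CPM in wild-type cells. HIST4H4, which encodes H4 and lies outside the chromosome 6 clusters, had 34.4, 49.5 and 79.4 CPM in knockdown cells, against 68.7, 77.6 and 96.9 CPM in wild-type cells. Here the highest knockdown libraries lay inside the wild-type range, and the fall of 0.63 ± 0.03 (adjusted p = 4.11e-18, limma) was smaller than that of any other member. In all, 16 of 17 members had every knockdown library below every wild-type library, against 9.39% of all genes. By role, the median falls were 1.09 for H2A, 1.15 for H2B and 1.28 for H3.

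**Figure D1:**
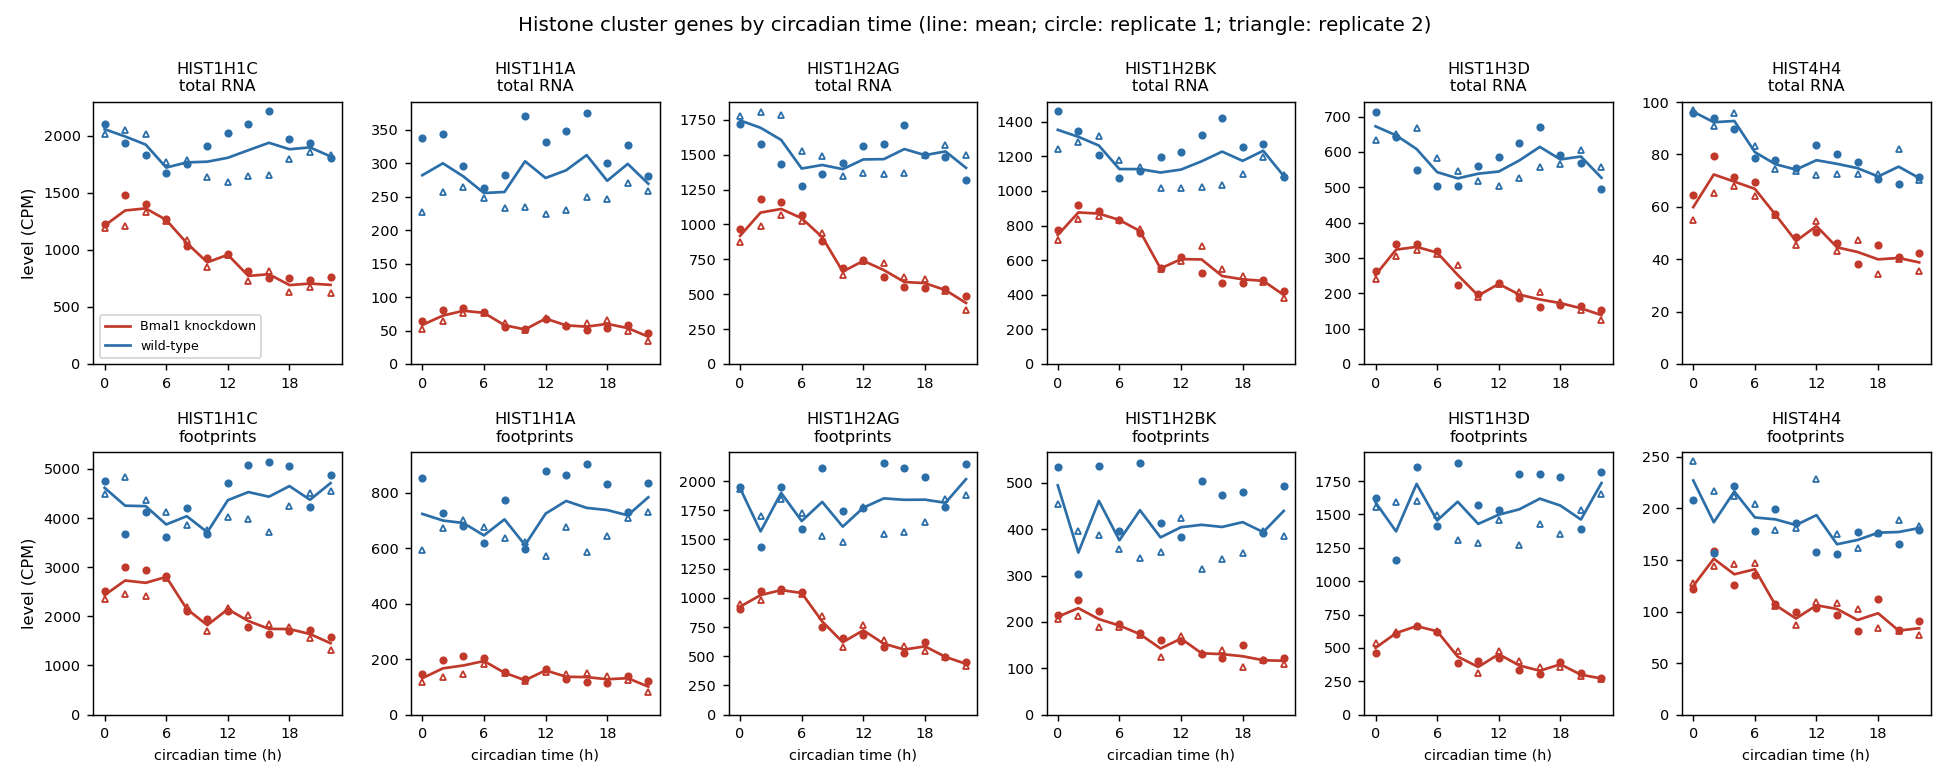
Levels (CPM, y axis from 0) of 6 histone cluster genes by circadian time (x axis, h) in total RNA (top) and footprints (bottom), with Bmal1 knockdown in red and wild-type in blue. Lines are means of the replicates, circles replicate 1 and triangles replicate 2. Knockdown levels lie below wild-type levels and are lower late than early. HIST1H2AG had medians of 543 CPM late (CT16 to CT22) and 1043 CPM early (CT00 to CT06) in knockdown total RNA.

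In ribosome footprints all 17 members were lower in knockdown cells as well, with a median change of -1.42, against -0.01 for all genes. Of all genes, 37.8% were lower by the same rule. The members together took 0.766% ± 0.191 of footprint reads in knockdown cells and 1.88% ± 0.210 in wild-type cells (SD, n = 24 each). HIST1H1A had 80.5, 142 and 210 CPM in knockdown footprints, against 572, 691 and 905 CPM in wild-type footprints, and fell by 2.32 ± 0.07 (adjusted p = 2.2e-21, limma). HIST1H3D had 267, 402 and 665 CPM in knockdown footprints, against 1155, 1546 and 1884 CPM in wild-type footprints, and fell by 1.86 ± 0.05. For both genes the ranges lay apart. HIST4H4 had 76.8, 106 and 158 CPM in knockdown footprints, against 156, 180 and 246 CPM in wild-type footprints, and fell by 0.80 ± 0.04. Its ranges overlapped, as did those of HIST1H2AD. The other 15 members had every knockdown library below every wild-type library, against 5.3% of all genes.

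For 12 of 17 members the fall was larger in footprints than in total RNA past the threshold, which is a fall in translational efficiency (footprints per total RNA). The median change in efficiency was -0.33 (log2), against -0.01 for all genes, and 17.2% of all genes were lower by this test. All 7 H2B genes passed, 3 of 4 H2A genes, HIST1H3D and HIST4H4, but 0 of 3 H1 genes in limma. Of the H1 genes, HIST1H1E (-0.15 ± 0.06, adjusted p = 0.0525) had an unadjusted p of 0.0158, and it passed in edgeR's quasi-likelihood test. Whether H1 and core histone genes differ in this was not tested. Efficiency fell by 0.70 ± 0.07 for HIST2H2BE (adjusted p = 3.63e-11, limma) and by 0.53 ± 0.06 for HIST1H2BN (adjusted p = 1.28e-09), both H2B genes. The smallest changes were 0.08 ± 0.11 for HIST1H2AD (adjusted p = 0.646, limma) and -0.08 ± 0.06 for HIST1H1C (adjusted p = 0.269). The count rests on both replicates: 3 members passed without replicate 1 and 2 without replicate 2. With the deposited scaling, 11 members were lower and 79.8% of all efficiency calls were higher in knockdown cells, against 41.9% with TMM scaling, so the direction of a small efficiency change depends on scaling.

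**Figure D2:**
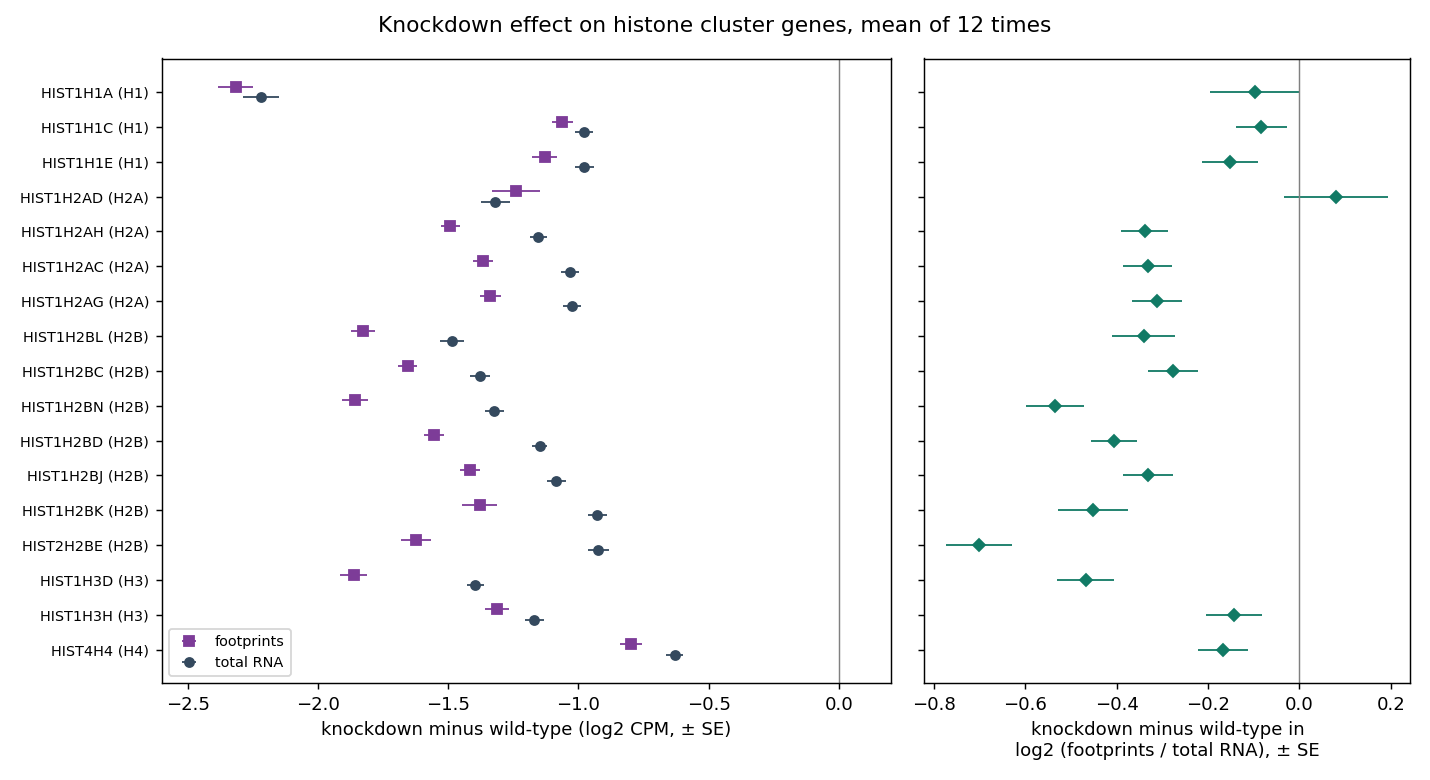
Knockdown minus wild-type for the 17 histone cluster genes, as the mean of 12 times with its SE. Left, log2 CPM in footprints (squares) and total RNA (circles). Right, the log2 ratio of footprints to total RNA. All points on the left lie below 0, with HIST1H1A lowest at -2.32 and -2.22, and HIST2H2BE lowest on the right at -0.70.

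The members differed widely in the ratio of footprint reads to total RNA reads. The ratio was not corrected for the length of a gene or of its coding part. Differences in it between genes, and percentiles among genes, may therefore not be differences in translation, which was not tested. The log2 ratio of footprint CPM to total RNA CPM is given as the lowest, median and highest of 24 pairs of libraries with the same time and number. The 3 H1 genes were high. HIST1H1E had 0.93, 1.25 and 1.38 in knockdown cells, against 0.99, 1.39 and 1.77 in wild-type cells, which puts its medians at the 92.9 and 94 percentile of 11947 genes. HIST4H4 and HIST1H3D were high too, with medians of 1.05 and 0.95 in knockdown cells and 1.27 and 1.36 in wild-type cells. The knockdown and wild-type ranges overlapped for all of these.

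At the other end were 3 core histone genes. HIST2H2BE had -2.57, -2.18 and -1.85 in knockdown cells, against -1.87, -1.49 and -0.85 in wild-type cells, so the ranges barely touched. HIST1H2BK had medians of -1.98 in knockdown cells and -1.56 in wild-type cells. HIST1H2AD had medians of -2.14 in knockdown cells and -2.24 in wild-type cells, or the 5.01 and 3.83 percentile. HIST2H2BE and HIST1H2BK are on the list of members reported to make polyadenylated transcripts, as is HIST1H1C, whose ratio was high. The others on that list were not low: HIST1H2AC had medians of 0.49 in knockdown and 0.85 in wild-type cells. HIST1H2BD had medians of -0.40 in knockdown and 0.02 in wild-type cells. HIST1H2AD overlaps HIST1H3D in RefSeq, and HIST1H2BK overlaps H4C9. The reads of HIST1H2AD, HIST1H3D and HIST1H2BK may therefore be shared with a neighbour, and their values are uncertain. HIST1H2BD overlaps an antisense gene and a pseudogene. Histone genes of a class are also near-identical in sequence, and how the authors treated reads that match several genes is not given in the sources used here.

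**Figure D3:**
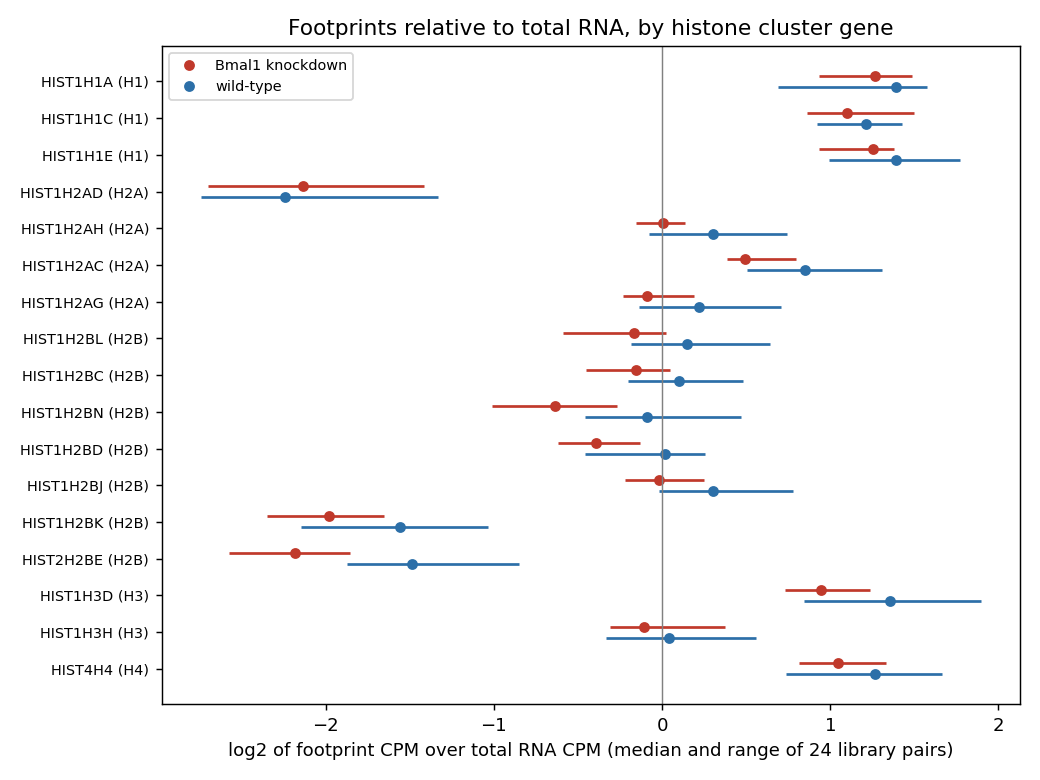
Log2 ratio of footprint CPM to total RNA CPM for each member, as the median (point) and range (line) of 24 library pairs, with knockdown in red above wild-type in blue. H1 genes, HIST1H3D and HIST4H4 lie near or above 1, while HIST1H2AD, HIST1H2BK and HIST2H2BE lie below -1 at the median.

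In knockdown cells the histone cluster genes were lower late than early in the sampled day, which wild-type cells showed far less. Late hours (CT16 to CT22, 8 libraries) were set against early hours (CT00 to CT06, 8 libraries). In knockdown total RNA all 17 members were lower late, with a median of -0.90, against 0.00 for all genes, and 16.9% of all genes were lower. Only 20 of 13261 genes lay below the members' median. In knockdown footprints all 17 were lower late, with a median of -0.83, and 12.6% of all genes were lower. The members' summed share of total RNA reads was 0.447% ± 0.0499 late and 0.829% ± 0.0720 early in knockdown cells, and 1.28% ± 0.102 late and 1.34% ± 0.110 early in wild-type cells (SD, n = 8 each).

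HIST1H2BJ, an H2B gene, had 252, 332 and 419 CPM late and 617, 716 and 820 CPM early in knockdown total RNA. Each late library lay below each early one, and the fall was 1.11 ± 0.09 (adjusted p = 9.61e-10, limma). HIST1H2AG, its H2A partner across the shared upstream stretch printed above, had 390, 543 and 621 CPM late and 872, 1043 and 1180 CPM early, a fall of 0.97 ± 0.09. HIST1H3D had 124, 162 and 204 CPM late and 241, 315 and 340 CPM early, a fall of 0.91 ± 0.09. Those ranges lay apart as well. HIST1H1A had 35.1, 52.1 and 66.4 CPM late and 52.6, 75.6 and 83.6 CPM early, with overlap, and the smallest fall among the members, 0.45 ± 0.11 (adjusted p = 0.00178, limma). Without replicate 1 the fall of HIST1H1A was 0.36 (adjusted p = 0.234, with a range of 0.000439 to 0.234 over the alternatives). In total RNA, 16 of 17 members had every late knockdown library below every early one, against 6.17% of genes, and in footprints 14 of 17, against 2.75%.

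In wild-type total RNA 3 of 17 members were lower late, HIST4H4 (-0.31 ± 0.04, adjusted p = 4.18e-06, limma), HIST1H2BJ (-0.19 ± 0.07) and HIST1H2AH (-0.19 ± 0.06), and 22.9% of all genes were lower. The members' median was -0.10. In wild-type footprints 1 of 17 was lower past the threshold, HIST4H4 (-0.21 ± 0.07, adjusted p = 0.0335, limma), and 10.3% of all genes were. HIST1H2AD had a larger change there, -0.39 (-0.43 in replicate 1 and -0.34 in replicate 2), but did not pass. No member had every late wild-type library below every early one in either assay, against 4.22% of genes in total RNA and 1.33% in footprints. The replicates of wild-type total RNA differed: without replicate 1, 14 members were past the threshold, and without replicate 2, 1 was. In replicate 1 the members' median was -0.96 in knockdown and -0.00 in wild-type total RNA. In replicate 2 it was -0.86 in knockdown and -0.18 in wild-type total RNA.

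The difference between the treatments was tested itself. Late minus early was more negative in knockdown than in wild-type cells for all 17 members in total RNA (median difference -0.82, 10.2% of all genes lower) and for all 17 in footprints (median -0.90, 5.14% lower). In total RNA the differences ran from -0.99 ± 0.17 for HIST1H2AD (adjusted p = 3.1e-05, limma) to -0.42 ± 0.09 for HIST4H4 (adjusted p = 0.000332). In footprints they ran from -1.07 ± 0.12 for HIST1H2AG (adjusted p = 4.94e-08, limma) to -0.43 ± 0.10 for HIST4H4 (adjusted p = 0.00337). Without replicate 1, 14 members passed in each assay, and HIST1H1A and HIST1H2AD were lost in both, with HIST4H4 in total RNA and HIST1H2BN in footprints. Without replicate 2, all 17 passed in total RNA and 15 in footprints. The footprint result of HIST1H2AD (adjusted p = 0.0472), which had 24 to 84 reads per library in knockdown footprints, did not pass under 7 of 8 alternatives.

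By the members' median, the gap to wild-type cells was narrower at CT06 than at CT00 and widest at CT22. All 17 members were lower in knockdown cells at each of the 12 times in both assays. In total RNA the median of knockdown minus wild-type was -0.98 at CT00, -0.55 at CT06, -1.20 at CT10, -1.45 at CT16 and -1.70 at CT22. In footprints it was -1.18 at CT00, -0.85 at CT06, -1.58 at CT10, -1.82 at CT16 and -2.20 at CT22.

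**Figure D4:**
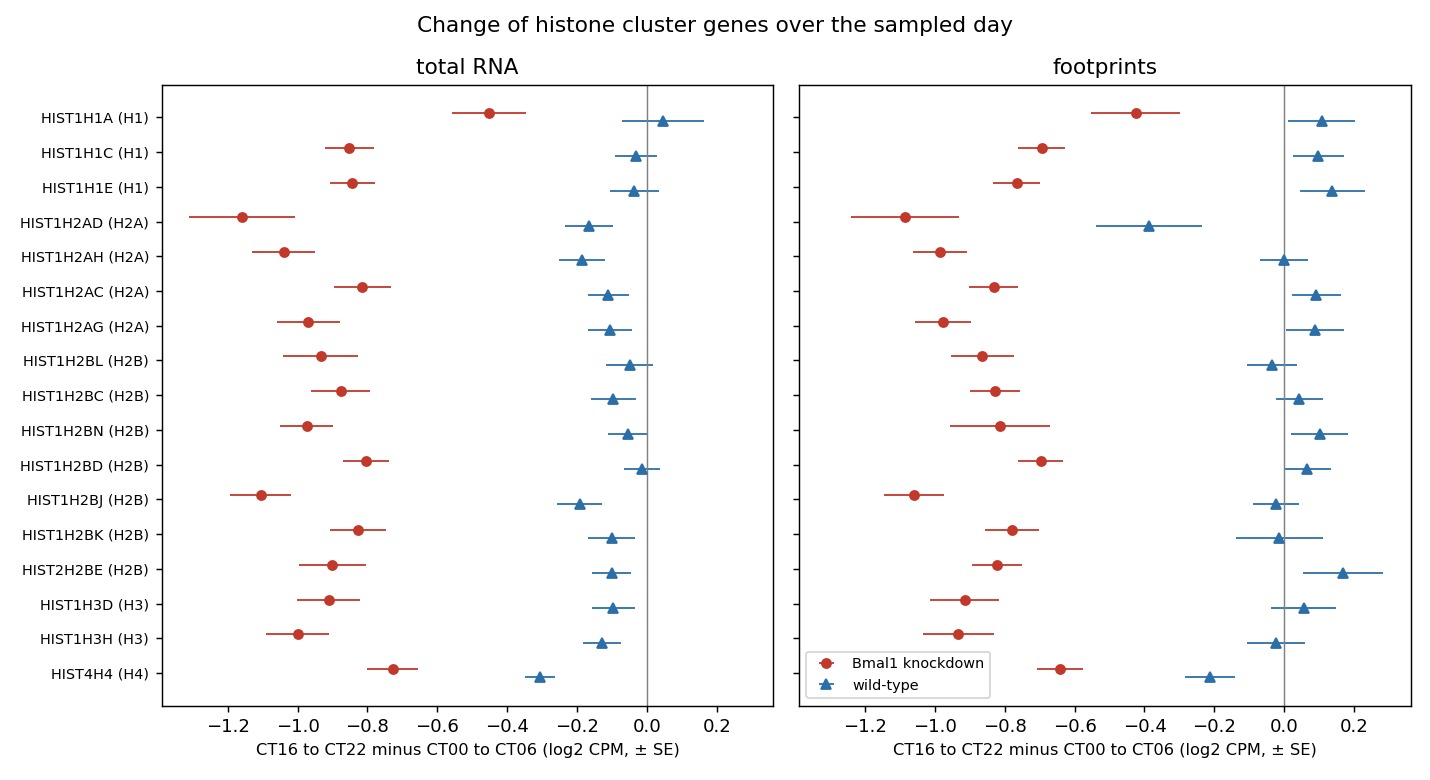
Late (CT16 to CT22) minus early (CT00 to CT06) hours in log2 CPM with its SE for the 17 members, in total RNA (left) and footprints (right), with knockdown as red circles and wild-type as blue triangles. Knockdown points run from -1.16 to -0.45 in total RNA, left of the wild-type points, which run from -0.31 to 0.05.

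Rhythms of 24 h were tested by a cosine fit within each treatment and assay, and the amplitude is the distance from mean to peak in log2 CPM. In knockdown total RNA 16 of 17 members passed, all but HIST1H1A, and 32.7% of all genes did. HIST1H1C had an amplitude of 0.46 ± 0.06 (adjusted p = 1.15e-05, limma) and HIST1H2BD of 0.43 ± 0.05 (adjusted p = 1.4e-05), with fitted peaks at CT 4.86 and 5.07. In knockdown footprints the same number passed, against 17.7% of genes, led by HIST1H2BJ (0.55 ± 0.08, adjusted p = 0.000182, limma) and HIST1H2BC (0.43 ± 0.06, adjusted p = 0.000241). A decline over the day also gives a cosine with an early peak. With a linear drift in the model 0 members passed in limma in either assay of knockdown cells, and 4 in total RNA and 0 in footprints had an unadjusted p under 0.05, so a cycle of 24 h and a decline cannot be told apart in 1 day. Without replicate 1, 7 members passed in knockdown total RNA and 2 in knockdown footprints.

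In wild-type cells 1 member passed in total RNA, HIST4H4 (amplitude 0.15 ± 0.03, peak CT 2.99, adjusted p = 0.00683, limma), and 22.4% of all genes did. HIST1H2AH followed with 0.10 ± 0.04 (adjusted p = 0.172). Without replicate 1, 16 members passed in wild-type total RNA, and without replicate 2, 0 did, with 1 at an unadjusted p under 0.05. With a linear drift 0 passed, and 16 had an unadjusted p under 0.05. In wild-type footprints 0 of 17 passed in limma and in edgeR, against 6.66% of genes, and 3 had an unadjusted p under 0.05: HIST1H1C (adjusted p = 0.107), HIST4H4 (adjusted p = 0.13) and HIST1H1E (adjusted p = 0.134). Without replicate 1, 6 members passed there.

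Genes that work beside the histone cluster were counted against the same background, in which 39.3% of all genes were lower in knockdown total RNA and 80.5% were past the threshold in either direction. Of 23 S phase genes, 22 were lower in knockdown total RNA, with a median of -0.85, against 0.01 for all genes. The largest falls were those of CCNE2, a cyclin that acts at the start of S phase (-1.50 ± 0.05), and MCM6, a subunit of the replicative helicase (-1.42 ± 0.04). CCNE2 had 8.97, 15.3 and 27.8 CPM in knockdown cells, against 37.2, 45.2 and 59.7 CPM in wild-type cells, with no overlap. Late minus early, 22 of 23 S phase genes were lower in knockdown total RNA, with a median of -0.51, against 16 of 23 and -0.17 in wild-type total RNA. Of all genes, 16.9% were lower late in knockdown and 22.9% in wild-type total RNA. The difference between treatments was past the threshold for 19 of them, all lower, against 10.2% of all genes.

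Of 15 histone chaperones and assembly factors, 13 fell and 1 rose in knockdown total RNA, with a median of -0.52. CHAF1A and CHAF1B, subunits of the factor that places H3 and H4 behind the replication fork, fell by 1.09 ± 0.03 and 1.00 ± 0.04. DAXX, a chaperone of the replacement histone H3.3, rose by 0.32 ± 0.02. Of 21 genes of histone mRNA synthesis, processing and decay, 12 fell and 6 rose, with a median of -0.11. Those 18 of 21 are near the 80.5% of all genes past the threshold, so the count is no result about this list. NPAT, the coactivator of histone transcription, fell by 0.40 ± 0.02, CASP8AP2 by 0.95 ± 0.03 and POU2F1, which binds the octamer, by 0.83 ± 0.05. LSM10, part of the particle that cuts histone mRNA ends, rose by 0.53 ± 0.04, and UPF1, a helicase of RNA decay, by 0.28 ± 0.02.

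SLBP, which binds the stem-loop of histone mRNAs, had 46.1, 51.0 and 60.9 CPM in knockdown total RNA, against 73.5, 86.7 and 103 CPM in wild-type total RNA, with no overlap, and fell by 0.75 ± 0.03 (adjusted p = 8.82e-23, limma). Its late minus early change differed between treatments by -0.03 ± 0.06 (adjusted p = 0.768), which lies closer to 0 than that of any member. Of 11 tested genes outside the clusters that were listed as replacement histones, 7 fell and 2 rose in knockdown total RNA, with a median of -0.22. Those 9 of 11 are again near the 80.5% of all genes. H2AFX, the H2A variant marked at DNA breaks, fell by 0.83 ± 0.03 and H2AFV by 0.80 ± 0.02, while H2AFJ rose by 0.14 ± 0.04 and H2AFY by 0.04 ± 0.01. Within the cluster, the 5 members reported to make polyadenylated transcripts had a median of -0.98 and the other 12 of -1.24 in the knockdown effect. Late minus early in knockdown total RNA, those medians were -0.83 and -0.95.

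The 18 members under the read minimum had a mean of 0.0208 to 8 reads per total RNA library. The minimum of 10 was set on the mean over both treatments. Nearest below it was HIST1H1T, with a mean of 8 reads (1.29 in knockdown and 14.7 in wild-type libraries), followed by HIST1H3F with 6.48 (2.67 in knockdown and 10.3 in wild-type libraries). Nearest above it was HIST4H4, with a mean of 1064 reads. Together the 18 had 1927 reads in 48 total RNA libraries and 2844 in 48 footprint libraries. Of them, 12 had more footprint than total RNA reads, and 5 had at least 10 times as many. HIST1H4L, an H4 gene, had 61 footprint reads in knockdown and 246 in wild-type libraries, with 1 read in knockdown and 0 in wild-type total RNA libraries. None of the 17 reported members had more footprint than total RNA reads. How this difference between the assays arose was not tested.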

How the data were processed

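Total RNA and footprints were sequenced in 96 libraries, in 48 groups of 2. The tools were STAR 2.3.0e, HTSeq 0.5.4p1 and DESeq2, with the build GRCh37 (hg19), per the submitters' processing notes. The kit for total RNA was stranded, per the labels' protocols, but strand settings of the counting are not given. The deposited unit is a signal, gene counts that the authors scaled by 1 factor per library. Whole reads were recovered, with 100% of values whole within 0.001 read. The main test was limma-trend (limma 3.58.1, R 4.3.3, robust) on log2 CPM with a pseudocount of 0.25, TMM scaling within each assay (edgeR 4.0.16), and filterByExpr with a minimum count of 10, over all genes. The planned edgeR quasi-likelihood test on those recovered reads became an alternative, since the deposited values are normalised. The pseudocount makes folds of low genes smaller. The threshold was 0.05 after Benjamini-Hochberg adjustment, by limma throughout. The code was tested on simulated data. The members and lists were chosen with earlier results of these data known. Values in full are given for the member with the most reads in each role, the 2 largest and 2 smallest knockdown effects in total RNA and in efficiency, and the 2 rhythms with the lowest p; other named members were chosen after their values were seen. Replicate numbers pair the wild-type total RNA libraries, whose times share deviations within a number (66 pairs, correlations 0.437 to 0.789). With the number as a block, 4997 genes were rhythmic there in place of 2952.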

Additional observations from a re-analysis of the deposited data

Results flagged for a closer look

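The change over the day differed between treatments for each of the 17 members in both assays, by the test of that difference (late minus early, knockdown minus wild-type, log2 CPM, adjusted p of 0.05 in limma). In total RNA the differences of the H1 genes were -0.50 for HIST1H1A, -0.82 for HIST1H1C and -0.81 for HIST1H1E. Those of the H2A genes were -0.70 for HIST1H2AC, -0.99 for HIST1H2AD, -0.86 for HIST1H2AG and -0.85 for HIST1H2AH. Those of the H2B genes were -0.78 for HIST1H2BC, -0.79 for HIST1H2BD, -0.91 for HIST1H2BJ, -0.73 for HIST1H2BK, -0.89 for HIST1H2BL, -0.92 for HIST1H2BN and -0.80 for HIST2H2BE. The H3 genes had -0.82 for HIST1H3D and -0.87 for HIST1H3H, and HIST4H4 had -0.42.

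In footprints the H1 genes had -0.53 for HIST1H1A, -0.79 for HIST1H1C and -0.90 for HIST1H1E. The H2A genes had -0.92 for HIST1H2AC, -0.70 for HIST1H2AD, -1.07 for HIST1H2AG and -0.99 for HIST1H2AH. The H2B genes had -0.87 for HIST1H2BC, -0.76 for HIST1H2BD, -1.04 for HIST1H2BJ, -0.76 for HIST1H2BK, -0.83 for HIST1H2BL, -0.91 for HIST1H2BN and -0.99 for HIST2H2BE. The H3 genes had -0.97 for HIST1H3D and -0.91 for HIST1H3H, and HIST4H4 had -0.43. The members share their libraries, so these values are not independent of each other.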

How the results depend on the processing

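All 17 members stayed lower in the knockdown effect in total RNA and in footprints under each alternative run, which were edgeR's quasi-likelihood test, other scalings, a pseudocount of 1, no filter, each replicate left out, the replicate block, series means and leaving out the 2 shallow libraries (total RNA). No member past the threshold with all libraries changed direction. Of 1343 signed values of members under alternatives, 25 changed sign, and these were not past the threshold with or without the alternative. With the deposited scaling the efficiency change became 0.0036 for HIST1H1A and 0.018 for HIST1H1C. The other 23 came with a replicate left out, and the ranges over the 2 replicates were as follows (log2). For efficiency they were -0.21 to 0.016 for HIST1H1A and -0.045 to 0.21 for HIST1H2AD. Late minus early in wild-type total RNA they were -0.14 to 0.075 for HIST1H1C, -0.088 to 0.016 for HIST1H1E, -0.22 to 0.0056 for HIST1H2AG, -0.19 to 0.0030 for HIST1H2BC, -0.083 to 0.055 for HIST1H2BD, -0.14 to 0.039 for HIST1H2BL and -0.21 to 0.0070 for HIST2H2BE. Late minus early in wild-type footprints they were -0.064 to 0.26 for HIST1H1C, -0.020 to 0.30 for HIST1H1E, -0.025 to 0.21 for HIST1H2AC, -0.055 to 0.23 for HIST1H2AG, -0.15 to 0.15 for HIST1H2AH, -0.13 to 0.21 for HIST1H2BC, -0.084 to 0.22 for HIST1H2BD, -0.18 to 0.13 for HIST1H2BJ, -0.12 to 0.089 for HIST1H2BK, -0.16 to 0.094 for HIST1H2BL, -0.091 to 0.29 for HIST1H2BN, -0.068 to 0.18 for HIST1H3D, -0.13 to 0.084 for HIST1H3H and -0.058 to 0.39 for HIST2H2BE. With each replicate left out, members past the threshold were 2 to 3 for efficiency (12 with both), 0 to 16 for the rhythm in wild-type total RNA, 0 to 6 in wild-type footprints, 7 to 16 in knockdown total RNA and 2 to 15 in knockdown footprints. Late minus early, they were 1 to 14 in wild-type total RNA and 2 in wild-type footprints, where HIST1H2BJ and HIST4H4 were lower without replicate 1 and HIST1H2BN and HIST2H2BE were higher without replicate 2. All genes past the threshold with a replicate left out were 1902 to 2609 for efficiency. They were 1582 to 2933 (wild-type total RNA), 133 to 465 (wild-type footprints), 1162 to 1959 (knockdown total RNA) and 468 to 811 (knockdown footprints) for rhythms. Late minus early they were 1345 to 1547 (wild-type footprints), 1311 to 3175 (knockdown total RNA) and 865 to 2096 (knockdown footprints), and for the difference between treatments 1043 to 2597 in total RNA and 381 to 484 in footprints. Series means gave 1903 genes for efficiency.

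The replicate block gave 4997 rhythmic genes in wild-type total RNA, and 1368 genes (758 without the block) and 1 member in wild-type footprints, and 2 members late minus early in wild-type footprints; it changed no other count beyond 1.5 times. Every pair of times correlated above 0.1 in wild-type total RNA only, so elsewhere pairing by number was not taken as shown. Over 66 pairs of times, deviations within a number correlated at -0.26 to 0.66 in knockdown total RNA, -0.31 to 0.27 in knockdown footprints and -0.11 to 0.57 in wild-type footprints. Knockdown and wild-type libraries of a time correlated at -0.15 to 0.22 in total RNA and -0.11 to 0.36 in footprints. A linear drift, tested in limma, left 0 members and 24 genes in wild-type total RNA, 7 genes in wild-type footprints, 0 members and 577 genes in knockdown total RNA, and 0 members and 261 genes in knockdown footprints. Late minus early in wild-type footprints, the deposited scaling gave 2 members and no filter 0 in limma, where 2 had an unadjusted p under 0.05 and edgeR called 1. The deposited scaling moved the share of higher calls in the knockdown effect in footprints to 60.9%, against 49.2%. The cause of these shifts was not tested. Footprint depth, and 1 day of 2 replicates, limit what small changes can show.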
